A study of Mus musculus with 5480 samples.

Results

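The semaphorin, ephrin, Slit and netrin families of guidance cues, with their receptors, were followed through the mesenchymal cells of the neonatal mouse lung. Members were chosen by gene symbol alone. The rule took 65 of the 18072 genes in the count table: 20 semaphorins, 9 plexins, 2 neuropilins, 13 Eph receptors, 8 ephrins, 3 Slits, 4 Robo receptors, 2 netrins and 4 Unc5 receptors. Reads had been counted in 5480 single cells sorted from the distal lung of 10 mice, 2 mice for each of 5 groups and always 1 female and 1 male. Mice breathing normal air were taken before birth (embryonic day 18.5, E18.5) or on postnatal day 1, 7 or 21 (P1, P7, P21), and a further group was exposed to hyperoxia, air enriched in oxygen, and taken at P7. The labels used here give no strain, transgene or oxygen percentage, so those features of the model were not analysed. The authors' 16 subtype labels for the cells were kept as given.

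Guidance cues were first described in the growing nervous system, where secreted or membrane-bound ligands steer axons by attracting or repelling them. Semaphorins act through plexins, with the neuropilins as binding partners for most of the secreted class 3 members. Slits act through Robo receptors, netrins through Dcc, Neo1 and the Unc5 receptors, and ephrins through Eph receptors on a touching cell, with signals that can run both ways. The same families act on vessel sprouting, smooth muscle and the branching airways in the developing lung.

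A Slit pair and an Unc5 pair were among the genes whose levels separated the myofibroblasts from the early alveolar fibroblasts. The 250 bases before the RefSeq start of each of these genes in build GRCm38.p6 are shown so that the promoters of genes that went together and apart can be read side by side. Slit2 lies at chr5:47982905-47983154 on the plus strand, Slit3 at chr11:35121206-35121455 on the plus strand, Unc5b at chr10:60831582-60831831 on the minus strand and Unc5c at chr3:141465314-141465563 on the plus strand. Capitals mark the GC box GGGCGG on either strand, overlapping matches included.
Slit2: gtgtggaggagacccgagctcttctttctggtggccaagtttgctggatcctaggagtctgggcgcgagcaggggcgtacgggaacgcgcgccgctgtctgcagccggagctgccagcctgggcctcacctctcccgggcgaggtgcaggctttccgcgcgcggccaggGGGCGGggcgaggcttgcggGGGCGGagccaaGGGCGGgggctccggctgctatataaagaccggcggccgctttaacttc
Slit3: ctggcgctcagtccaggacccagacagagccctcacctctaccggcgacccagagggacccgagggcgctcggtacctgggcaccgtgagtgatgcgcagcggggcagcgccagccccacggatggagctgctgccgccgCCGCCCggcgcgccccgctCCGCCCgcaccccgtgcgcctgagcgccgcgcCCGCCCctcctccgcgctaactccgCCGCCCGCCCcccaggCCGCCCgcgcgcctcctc
Unc5b: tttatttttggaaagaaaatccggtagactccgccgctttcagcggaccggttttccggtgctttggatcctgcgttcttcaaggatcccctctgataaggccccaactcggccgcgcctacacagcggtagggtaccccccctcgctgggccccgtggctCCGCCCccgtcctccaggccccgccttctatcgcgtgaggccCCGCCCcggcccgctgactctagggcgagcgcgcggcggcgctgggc
Unc5c: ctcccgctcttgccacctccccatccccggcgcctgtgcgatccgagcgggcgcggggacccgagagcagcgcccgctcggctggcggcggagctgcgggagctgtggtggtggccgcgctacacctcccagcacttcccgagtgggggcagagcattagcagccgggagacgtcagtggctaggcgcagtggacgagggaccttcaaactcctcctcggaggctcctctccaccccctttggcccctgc
The windows held 3 GC boxes before Slit2, 6 before Slit3, 2 before Unc5b and 0 before Unc5c, and their GC content was 69.6%, 78.8%, 66.8% and 71.2%. A GC box stood in 32.7% of 32851 promoter windows of this length. The letters TATAAA stood once, before Slit2, and in 12.4% of all windows. A CArG box, the site known for serum response factor in muscle genes, was in none of the 4 windows and in 1.47% of all. A match of letters is a description of the window and not a site, and none of these counts separated the genes of the early alveolar fibroblast from Unc5b.

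The mice gave 311 to 633 cells and 294154721 to 671766116 reads each, and single cells held 39358 to 5177020 reads. Levels are in CPM: the reads of a gene were summed over the cells of a subtype in a mouse and scaled to 1000000 reads in all, and a mouse gave a level with at least 10 cells. Such a sum does not tell fewer expressing cells from fewer reads per cell, so shares of cells with a read are given beside the results that turn on them. Marker lists summed to 29500 for alveolar genes in alveolar fibroblasts, 6830 in early alveolar fibroblasts, 20900 for adventitial genes in adventitial fibroblasts and 15000 for pericyte genes in pericytes. Lists of the contractile cells share genes and did not single out their subtype: the myofibroblast list was at 8340 in myofibroblasts and 18000 in early airway smooth muscle, and the airway smooth muscle list at 17900 there and 20300 in vascular smooth muscle. The early alveolar label at E18.5 covered only 14 and 24 cells in the female and the male, and after thinning to 100000 reads those cells held a median of 1044.5 and 922 genes, against 2289 and 2026 at P7. No run held cells of both airs at P7 in the mesenchymal sort, so run and hyperoxia cannot be told apart. E18.5 and P1 shared a run within each sex, and the later ages shared one in males only, so the male values of an age step lie within a run.

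Most of the guidance genes were measured in these cells. A mean of at least 10 CPM in at least 1 subtype was reached by 47 of the 65 members: 12 semaphorins, 8 plexins, 2 neuropilins, 10 Eph receptors, 6 ephrins, 2 Slits, 2 Robo receptors, 2 netrins and 3 Unc5 receptors. Between 22 members, in pericytes, and 34, in early adventitial fibroblasts, were at that level in the subtypes other than striated muscle, which had 3. Only 7 members reached it in all 14 of those other subtypes with a level. The members with a mean below it in every subtype were Efna3, Efnb3, Epha8, Epha10, Ephb1, Plxnb3, Robo3, Robo4, Sema3g, Sema4a, Sema4c, Sema4d, Sema4f, Sema6b, Sema6c, Sema7a, Slit1 and Unc5d. Read per kilobase of exon, the 4 members with the highest means, taking for each its highest label with several mice, were Sema3c in early airway smooth muscle (53.2 CPM per kilobase), Nrp1 in early adventitial fibroblasts (50.9), Efna5 in early adventitial fibroblasts (39.4) and Efnb2 in airway smooth muscle (38.9). Efna1 (77.0) and Efna5 (60.0) were higher still in the male hyperoxic fibroblasts, a label with 55 cells of a single mouse. For Efna5, another label of that same mouse was higher. Each mean pools the mice of a label over ages and both airs.

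**Figure D1:**
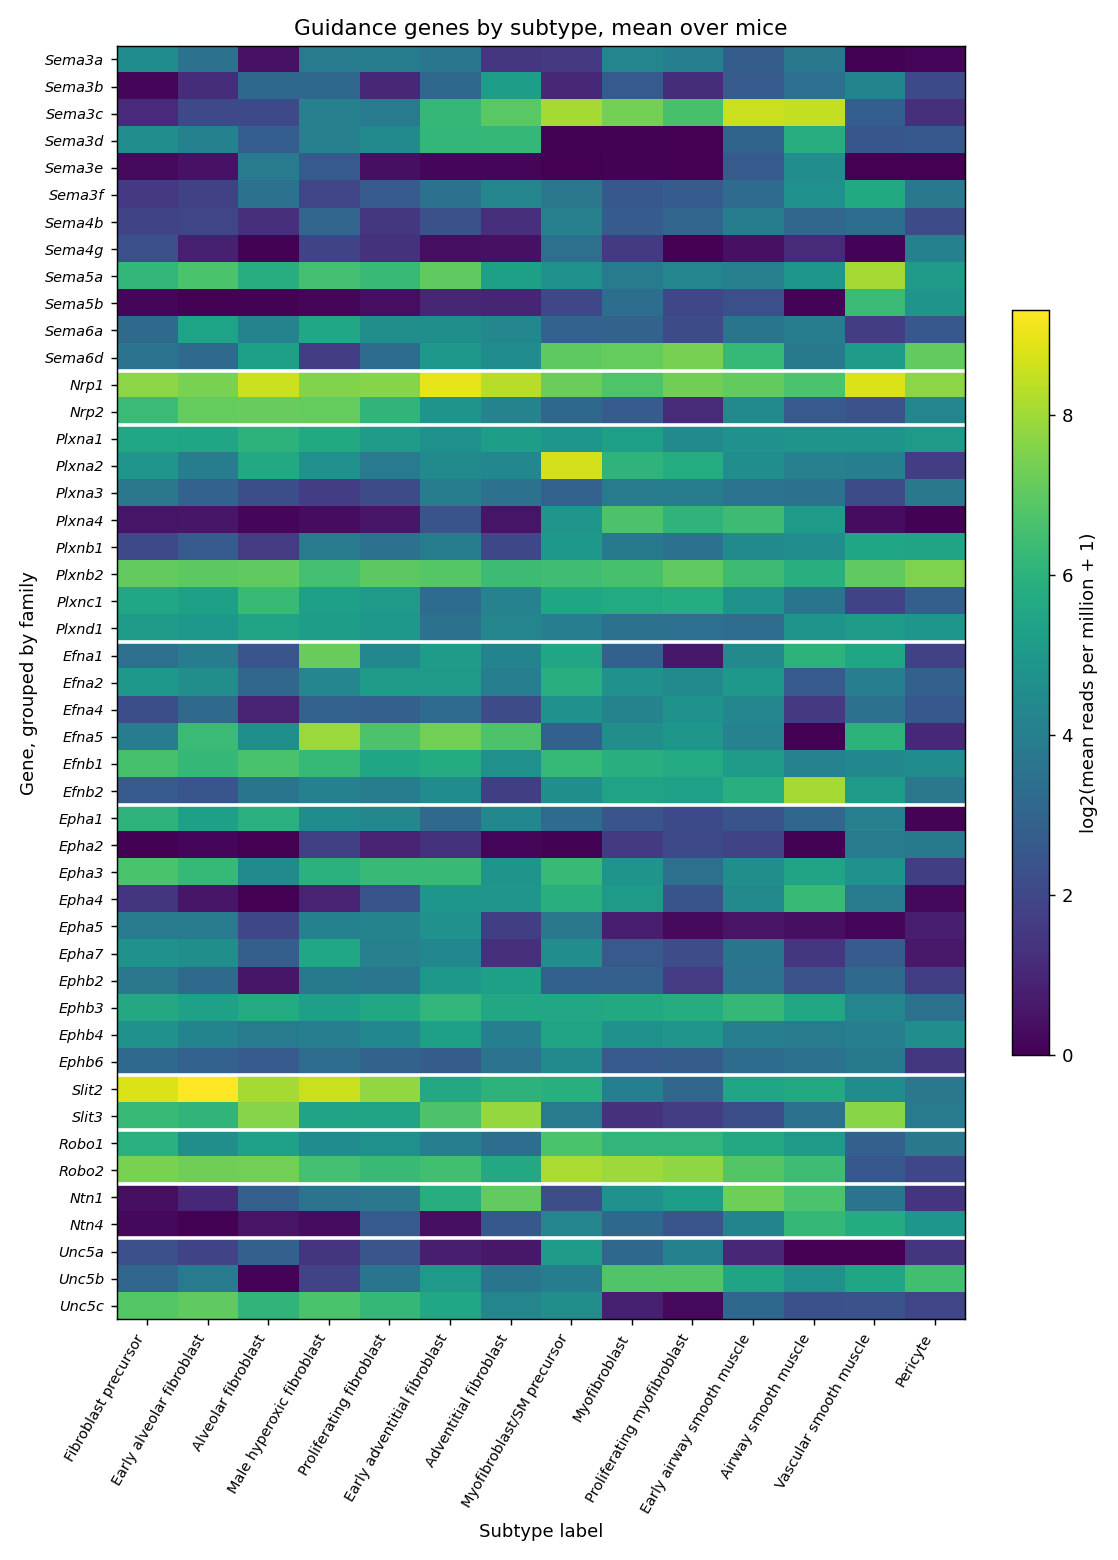
Mean level of the guidance genes in each subtype label, as log2 of CPM plus 1, averaged over the mice with at least 10 cells of the subtype. Brighter colours are higher levels. Slit2 is brightest in the early alveolar column, Sema3c and Ntn1 in the early airway smooth muscle column, and Plxna4 in the myofibroblast column.

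Slit2, a secreted ligand of the Robo receptors, was highest in the alveolar lineage. Its mean was 635 ± 269 CPM in early alveolar fibroblasts (SD, n = 8), 450 ± 28.8 in fibroblast precursors (n = 2), 268 ± 67.5 in alveolar fibroblasts (n = 2) and 223 ± 116 in proliferating fibroblasts (n = 5). It was 63.7 in adventitial fibroblasts, 15.2 in myofibroblasts and 12.0 in pericytes. Early alveolar fibroblasts and fibroblast precursors were not apart beyond their spread, since the lowest, median and highest mouse of the former stood at 324, 576 and 978. Early alveolar fibroblasts had the highest Slit2 level in 7 of 8 mice. Within those mice the median fold over early adventitial fibroblasts was 17.3, from 5.59 to 22.3, and the subtypes did not overlap.

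Slit3, its paralogue, had another distribution. It was at 229 ± 133 CPM in adventitial fibroblasts (n = 2), 199 ± 119 in vascular smooth muscle (n = 8) and 198 ± 91.8 in alveolar fibroblasts (n = 2), and these 3 means lay within each other's spread. Early adventitial fibroblasts had 103 ± 32.4 and early alveolar fibroblasts 66.9 ± 30.1 (n = 8 each). Myofibroblasts, at 1.49 ± 2.58 (n = 6), were without it in 3 of 6 mice. Per kilobase of exon, Slit3 reached 37.8 in adventitial fibroblasts and Slit2 25.0 in early alveolar fibroblasts.

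The receptor Robo2 was highest in the labels of the myofibroblast line, where Slit2 was low. It stood at 279 ± 91.6 CPM in the myofibroblast and smooth muscle precursors (n = 2), 245 ± 74.4 in myofibroblasts (n = 6) and 217 ± 92.3 in proliferating myofibroblasts (n = 3), values that overlapped. The alveolar subtypes also carried it, at 156 ± 70.9 in early alveolar fibroblasts (n = 8) and 158 ± 81.7 in alveolar fibroblasts (n = 2). In the mural cells of vessels it was nearly missing, with 4.98 in vascular smooth muscle and 2.93 in pericytes. Robo1 followed a similar order at lower levels, with 102 ± 13.2 in the myofibroblast and smooth muscle precursors (n = 2), 68.7 ± 22.7 in myofibroblasts (n = 6) and 6.28 in vascular smooth muscle. The endothelial receptor Robo4 stayed below 10 in every mean over the mice of a label, but not at every age. Myofibroblasts at P1 had 25.2 and 27.7 CPM in the female and male. At P21, 7 of 70 and 5 of 75 pericytes held 1529 and 1806 Robo4 reads, with 59.4% and 48% of them from 1 cell. A list of 7 endothelial markers summed to 29.5 and 100 CPM in the P21 pericytes, with Tek highest at 12.1 and 64.3. At P7 it summed to 34.5 and 31.4, where Robo4 had 0 and 1 read. The part of endothelial transcripts in the Robo4 values was not tested.

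Ligand and receptor also met in single cells. After thinning, 91.9% and 89.1% of the early alveolar fibroblasts of the female and male P7 mice in normal air held a Slit2 read, 49.0% and 58.7% a Robo2 read, and 47.6% and 54.3% both. In the myofibroblasts of the same mice 52.6% and 59.0% held a Robo2 read but only 4.61% and 8.43% a Slit2 read. Since nearly every early alveolar fibroblast held Slit2, most of those with Robo2 held both.

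The netrins marked muscle and adventitia. Ntn1, the secreted netrin-1, was highest in early airway smooth muscle in 6 of 6 mice, at 153 ± 45.3 CPM, and reached 134 ± 4.38 in adventitial fibroblasts and 100.5 ± 0.354 in airway smooth muscle (n = 2 each). Early adventitial fibroblasts had 55.3 ± 40.2 (n = 8), myofibroblasts 25.4 ± 18.3 (n = 6) and early alveolar fibroblasts 1.08 (n = 8). Ntn4, a netrin of basement membranes, was at 72.7 ± 53.4 in airway smooth muscle (n = 2), 51.5 ± 75.4 in vascular smooth muscle and 28.9 ± 32.9 in pericytes (n = 8 each), with an SD above the mean in both vessel labels. Airway smooth muscle was the highest label for Ntn4 in 0 of the 2 mice with a level there.

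Among the netrin receptors, Unc5b and Unc5c were high in different labels. Unc5b stood at 111 ± 13.9 CPM in proliferating myofibroblasts (n = 3), 110 ± 48.2 in myofibroblasts (n = 6) and 89.6 ± 62.2 in pericytes (n = 8), and at 0.0760 in alveolar fibroblasts (n = 2). Unc5c stood at 131 ± 79.9 in early alveolar fibroblasts (n = 8) and 114 ± 12.4 in fibroblast precursors (n = 2), against 0.760 in myofibroblasts (n = 6) and 0.171 in proliferating myofibroblasts (n = 3). In the thinned P7 cells in normal air, 57.1% and 58.7% of early alveolar fibroblasts held Unc5c and 0.952% and 1.45% held Unc5b, while in myofibroblasts 1.32% and 1.69% held Unc5c and 48.7% and 28.1% held Unc5b. Unc5a was low except in the myofibroblast and smooth muscle precursors (33.5 ± 9.34, n = 2) and proliferating myofibroblasts (16.2 ± 4.67, n = 3).

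**Figure D2:**
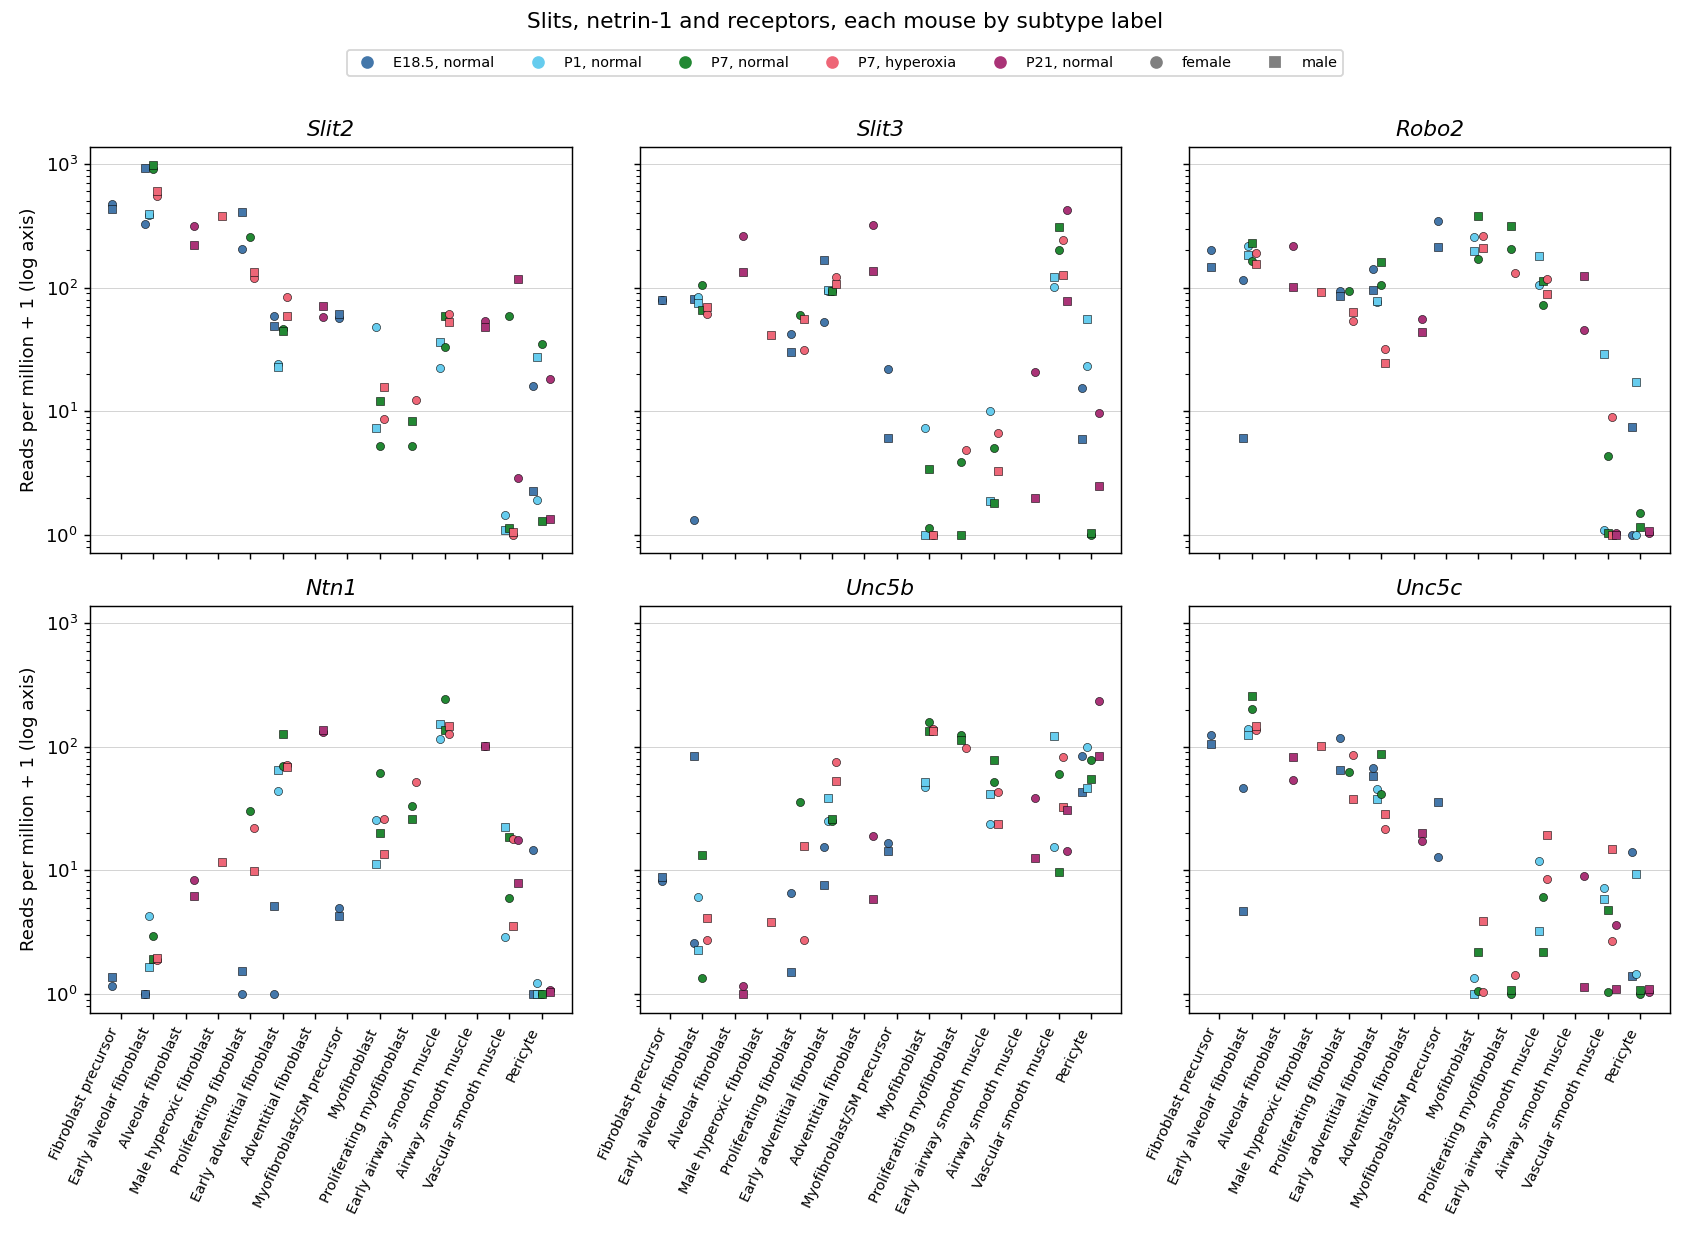
Each point is a mouse with at least 10 cells of the subtype, coloured by group and shaped by sex, on a log axis of CPM plus 1. Slit2 and Unc5c are high in the alveolar columns, Unc5b and Robo2 in the myofibroblast columns, and Ntn1 in the airway smooth muscle and adventitial columns.

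The secreted class 3 semaphorins divided the subtypes in a different way. Sema3c, a ligand of neuropilin complexes, was highest in early airway smooth muscle in 6 of 6 mice, at 380 ± 108 CPM, with 353 ± 79.3 in airway smooth muscle and 265 ± 114 in the myofibroblast and smooth muscle precursors (n = 2 each). Myofibroblasts had 164 ± 53.1 (n = 6) and pericytes 1.46 (n = 8). The lowest, median and highest early airway smooth muscle level was 202, 378 and 532.5. Sema3d was an adventitial gene, at 72.3 ± 12.5 in adventitial (n = 2) and 70.8 ± 31.0 in early adventitial fibroblasts (n = 8), and was near 0 in myofibroblasts (0.0408).

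Of the membrane-bound semaphorins, Sema5a and Sema5b were highest in vascular smooth muscle, Sema6d in myofibroblast labels and pericytes, and Sema6a in the male hyperoxic (46.2 CPM, 1 mouse) and early alveolar fibroblasts (41.6). Sema5a was highest in vascular smooth muscle in 6 of 8 mice, at 263 ± 84.2 CPM, with 132 ± 45.0 in early adventitial fibroblasts (n = 8) and 13.3 in myofibroblasts. Sema5b was highest in vascular smooth muscle in all 8 mice with a level, at 81.1 ± 52.8, followed by pericytes at 27.2 ± 47.0. Sema6d was at 168 ± 24.2 in proliferating myofibroblasts (n = 3), 138 ± 28.7 in myofibroblasts (n = 6) and 134 ± 64.0 in pericytes (n = 8), which overlapped, and at 8.38 in early alveolar fibroblasts.

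The semaphorin receptors were spread more widely. Nrp1, the neuropilin that also binds vascular endothelial growth factor, stood above 100 CPM in all 14 non-striated means, from 100.9 in airway smooth muscle to 498 ± 136 in early adventitial fibroblasts (n = 8). Nrp2 was narrower, at 141 ± 1.98 in alveolar (n = 2) and 137 ± 72.4 in early alveolar fibroblasts (n = 8), against 1.16 in proliferating myofibroblasts. Plxna2 reached 419 ± 19.0 in the myofibroblast and smooth muscle precursors (n = 2), and the next mean was 65.1 ± 13.4 in myofibroblasts (n = 6), with no overlap. Plxna4 was at 104 ± 19.5 in myofibroblasts and 81.6 ± 23.6 in early airway smooth muscle (n = 6 each), and at 0.463 in early alveolar fibroblasts. Plxnb2, a receptor of class 4 semaphorins, ranged over the non-striated labels only from 56.6 in airway smooth muscle to 184 ± 71.3 in pericytes (n = 8).

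Ephrins and Eph receptors were found in every lineage. Efnb2, the transmembrane ephrin known as an arterial marker, was at 267 ± 21.2 CPM in airway smooth muscle (n = 2), and the next mean was 56.0 ± 19.3 in early airway smooth muscle (n = 6), without overlap. The lipid-anchored Efna5 was at 159 ± 136 in early adventitial fibroblasts (n = 8, hyperoxia mice included), 104 ± 20.8 in adventitial fibroblasts (n = 2) and 242 in the male hyperoxic fibroblasts (1 mouse), and at 1.05 in pericytes. Efnb1 was at 99.5 ± 36.7 in alveolar fibroblasts and 94.98 ± 7.38 in fibroblast precursors (n = 2 each), which did not differ beyond their spread. Of the receptors, Epha3 was highest in fibroblast precursors (101.3 ± 13.3, n = 2), Epha4 in airway smooth muscle (76.8 ± 59.1, n = 2), Ephb3 in early airway smooth muscle (71.8 ± 16.3, n = 6), Epha1 in fibroblast precursors (65.8 ± 14.5, n = 2) and Ephb2 in adventitial fibroblasts (38.0 ± 6.97, n = 2). Pericytes had 0.0696 CPM of Epha1, 0.135 of Epha4, 2.30 of Epha3, 2.35 of Ephb2 and 10.1 of Ephb3.

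Neighbouring subtypes were then compared inside each mouse. A member was counted when it differed at least 2-fold in the same direction in every mouse with 10 cells of both, among members with a mean of at least 10 in either subtype. Where a mouse had no read in the lower subtype, any read in the other met the rule. These are descriptions with no test, because the labels had been drawn from the same reads, and the same rule over all genes gives the background share.

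Myofibroblasts and early alveolar fibroblasts lay far apart. In 6 mice 18 of 36 members (50.0%) met the rule, where 8.64% of all genes did. Myofibroblasts had more of 7: the ligands Efnb2, Ntn1, Sema3c and Sema6d and the receptors Unc5b, Epha4 and Plxna4. Early alveolar fibroblasts had more of 11: the ligands Slit2, Slit3, Sema3d, Sema5a, Sema6a and Efna5 and the receptors Unc5c, Nrp2, Plxnd1, Epha1 and Epha7. Slit2 in the myofibroblasts of the female and male was 46.9 and 6.36 CPM at P1, 4.28 and 11.2 at P7 and 7.64 and 14.8 in hyperoxia. In the early alveolar fibroblasts of the same mice it was 385 and 396.5, 917.5 and 977.8, and 546 and 606. The smallest fold inside a mouse was 8.20, in the female at P1. Nrp2 was at 166 ± 47.0 against 5.39 ± 5.97, Sema5a at 110 ± 17.3 against 13.3 ± 4.56 and Plxna4 at 0.564 ± 0.603 against 104 ± 19.5 (SD, n = 6 each, early alveolar fibroblasts first). None of these genes overlapped between the subtypes, while Epha7 and Efna5 overlapped across mice and were 2-fold apart only inside each mouse.

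**Figure D3:**
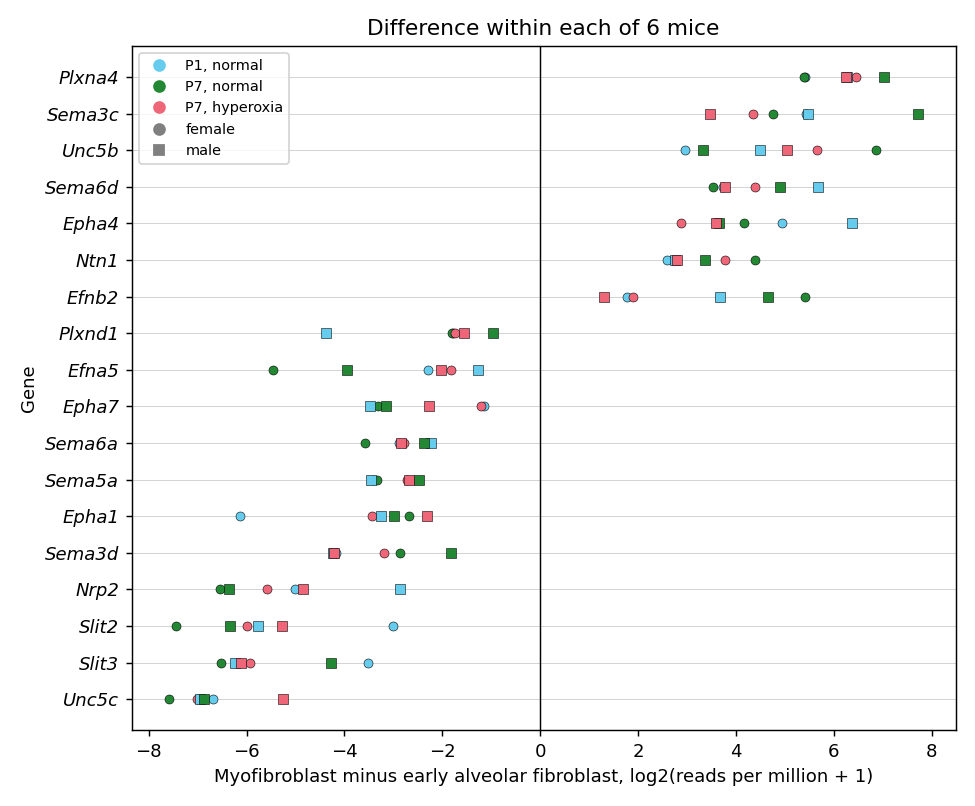
Level in myofibroblasts minus the level in early alveolar fibroblasts of the same mouse, on the log2 scale of CPM plus 1, for the 18 members of the rule and 6 mice. Unc5c, Slit2 and Nrp2 lie far to the left in every mouse, and Plxna4, Sema3c and Unc5b to the right.

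Part of the same axis was visible at E18.5 between the precursors. Fibroblast precursors and myofibroblast and smooth muscle precursors differed in 21 of 40 members (52.5%) in both mice, where 18.1% of all genes did. Slit2 (450 against 58.3), Slit3 (78.6 against 13.0), Unc5c (114 against 23.1), Nrp2, Sema5a, Sema3a, Sema3d, Epha1 and Plxnd1 were higher in the fibroblast precursors. Plxna2 (419 against 28.2), Sema3c (265 against 1.24), Sema6d (128 against 10.7), Plxna4, Unc5a, Ntn4, Epha4, Efna4, Ephb6, Sema3f, Sema4b and Plxnb1 were higher in the muscle precursors. Of the genes on both lists, Slit2, Slit3, Unc5c, Nrp2, Sema5a, Sema3d, Epha1, Plxnd1, Sema3c, Sema6d, Epha4 and Plxna4 pointed the same way at E18.5 as after birth. Unc5b, Ntn1, Efnb2, Sema6a, Epha7 and Efna5, on the list after birth, did not meet the rule at E18.5. How far the lists share direction over all genes was not computed.

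Fewer members met the rule in the next pairs. The rule is stricter with more mice, so pairs with unlike numbers of mice cannot be ranked by it. The first of these pairs included the E18.5 mice, with only 14 and 24 early alveolar cells. Early adventitial and early alveolar fibroblasts differed in 4 of 36 members in 8 mice (11.1%, against 3.52% of all genes): Slit2 was higher in the alveolar cells, and Sema3c, Sema6d and Epha4 in the adventitial ones. Sema3c was at 72.3 ± 48.6 against 3.19 ± 3.05 (n = 8 each), but the mice overlapped because the female at E18.5 had 2.39. Epha4 overlapped too: its lowest adventitial value was 0.147 CPM, and 2 mice had no read in the alveolar cells. Early airway smooth muscle and myofibroblasts differed in 1 of 34 (2.94%, against 2.16%), a share near the background. That gene was Ntn1, with 115 and 151 against 24.7 and 10.2 in the P1 mice, 241 and 136 against 60.6 and 18.9 at P7, and 127 and 146 against 25.1 and 12.6 in hyperoxia.

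Vascular smooth muscle and pericytes, the mural cells of larger and smaller vessels, differed in 6 of 32 members in 6 mice (18.8%, against 5.47% of all genes). Slit3, Sema5a, Sema5b, Ntn1 and Epha1 were higher in vascular smooth muscle and Sema4g in pericytes. Slit3 was at 205 ± 135 against 14.6 ± 21.6 and Sema5a at 258 ± 97.3 against 31.8 ± 43.9 (SD, n = 6 each). Slit3 did not overlap between the subtypes, and Sema5a did. Epha1 overlapped as well: it had no read in the pericytes of 5 of 6 mice, and its lowest vascular smooth muscle value was 0.387 CPM.

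The mature fibroblasts of P21 could be compared in only 2 mice, where 17 of 35 members (48.6%) met the rule and so did 18.6% of all genes. Ntn1 (134 against 6.24), Sema3c (120 against 3.16), Sema3d (72.3 against 5.89), Efna5 (104 against 23.6), Ephb2 (38.0 against 0.497), Sema3b, Unc5b, Epha4 and Efna1 were higher in adventitial fibroblasts. Slit2 (268 against 63.7), Nrp2 (141 against 16.8), Robo2 (158 against 48.7), Efnb1 (99.5 against 24.5), Unc5c (66.6 against 17.6), Robo1, Epha1 and Sema3e were higher in alveolar fibroblasts.

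Changes with age were tested in 6 cell classes, which join the early and later labels of a lineage, on read counts summed per mouse. The test was edgeR's quasi-likelihood test, two-sided, with terms for sex and group, and p-values were adjusted by Benjamini-Hochberg over all genes tested. With 2 mice a group and nothing in the labels on litters, the test measures the spread between single mice. A log2 change is that of the fit. Of all the tests below, a single member passed an adjusted p of 0.05.

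That member was Ephb2, an Eph receptor for B-type ephrins, in alveolar fibroblasts between E18.5 and P1. It had no read in either mouse at E18.5 and 7.91 and 11.3 CPM in the female and male at P1 (edgeR adjusted p = 0.0468). Set against 3 reads over the E18.5 group, the P1 level was 56.2-fold higher. That fold allows for counting error of reads only and not for the few cells, so it is no lower bound. At P1 40 of 362 and 52 of 393 cells held a read, and a single cell gave 46.2% and 33.7% of the reads. After thinning, 7.31% and 8.59% of the P1 cells held one. At E18.5 0 of 14 and 0 of 24 cells held a read, in cells with few genes. The part of cell quality in that difference was not tested. Leaving out 1 mouse at a time gave adjusted p between 0.0177 and 0.235, and RLE size factors or no filter on low counts ended the call. In this comparison 6.16% of 15670 genes were called and 1 of 58 members. At an unadjusted p under 0.05 there were 15 members up and 0 down, or 25.9% of members against 21.0% of all genes. DESeq2 called 14 members, all up, among 3609 genes. The members' median log2 change was 2.29 and that of all genes 1.35, so the shift was not that of the members alone. Epha1, with 1.60 and 0 before and 69.3 and 65.0 after (log2 change 7.08 ± 1.76 SE, adjusted p = 0.0552), and Plxnd1, a receptor of Sema3e, with 0.960 and 3.91 before and 40.0 and 46.0 after (adjusted p = 0.0892), did not pass. The fibroblast precursors at E18.5, a label outside this class, already had 65.8 ± 14.5 CPM of Epha1 and 34.5 ± 1.16 of Plxnd1 (SD, n = 2).

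Slit2 in alveolar fibroblasts had its highest levels at P7 in normal air. The female and male had 324 and 926 CPM at E18.5. At P1 they had 385 and 396.5, at P7 917.5 and 977.8, and at P21 316 and 229. The P1 and P7 mice did not overlap, and the log2 change was 1.24 ± 0.529 (SE), with an unadjusted p of 0.047 and an adjusted p of 1.0. At E18.5 a single cell gave 57.1% and 63.5% of the Slit2 reads. edgeR called 0% of all genes between P1 and P7, with 1 member up and 1 down at an unadjusted p under 0.05 (3.45% of members, 2.36% of all genes). DESeq2 called 1 member among 215 genes.

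Between P7 and P21 edgeR called 0.0702% of genes in alveolar fibroblasts and 0 of 58 members, with 2 up and 4 down at an unadjusted p under 0.05 (10.3% of members, 7.13% of all genes). DESeq2 called 7 members among 1057 genes. Nrp1 had 84.6 and 132.5 CPM at P7 and 371 and 387.5 at P21, without overlap (log2 change 2.11 ± 0.657, adjusted p = 0.569). Ephb2 had 21.4 and 5.42 at P7 and 0.640 and 0.346 at P21 (adjusted p = 0.619), and 1 cell gave 67.4% of its reads in the male at P7.

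In adventitial fibroblasts Sema3c and Ntn1, which at P21 were higher there than in alveolar fibroblasts, were low before birth. Both genes had their highest mean in early airway smooth muscle. Sema3c had 2.39 and 10.1 CPM at E18.5 and 103 and 48.1 at P1 (log2 change 3.70 ± 0.724, adjusted p = 0.114). Ntn1 had 0 and 4.16 at E18.5 and 42.8 and 63.4 at P1 (5.05 ± 1.22, adjusted p = 0.219). The share of cells with a Sema3c read was 7.69% and 20.7% at E18.5 and 37.7% and 35.8% at P1, and with an Ntn1 read 0% and 10.3% at E18.5 and 34.1% and 26.9% at P1. For both genes the ages did not overlap, and neither passed. edgeR called 0.17% of genes and 0 of 58 members, with 3 up and 1 down at an unadjusted p under 0.05 (6.90% of members, 9.23% of all genes). DESeq2 called 789 genes, of which these 2 were members.

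Later in this lineage the values of Sema5a and Epha3 were lower. Sema5a had 210 and 168 CPM at P7 and 48.5 and 24.7 at P21, a log2 change of -2.22 ± 0.427 (adjusted p = 0.0944), and Epha3 had 105.5 and 124 and then 38.0 and 19.5 (-1.87 ± 0.446, adjusted p = 0.188). A single cell of the male P21 mouse gave 66.2% of its Sema5a reads. edgeR called 0.124% of genes and 0 of 58 members between P7 and P21, with 2 up and 8 down at an unadjusted p under 0.05 (17.2% of members, 10.2% of all genes). DESeq2 called 6 members among 854 genes. Between P1 and P7 it called 0% of genes, with 4 members up and 1 down at an unadjusted p under 0.05 (8.62% against 5.60%) and 1 member among the 335 genes of DESeq2. Plxna2 had 13.9 and 7.00 at P1 and 45.9 and 56.2 at P7 (adjusted p = 0.829), and Plxnb1 0.0666 and 2.99 and then 18.2 and 70.6 (adjusted p = 0.829). At P7 a single cell gave 68.2% and 87.9% of the Plxna2 reads and 100% and 99.9% of the Plxnb1 reads.

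In airway smooth muscle Efnb2 and Sema6d parted between P7 and P21. Efnb2 had 58.5 and 88.7 CPM at P7 and 242 and 262 at P21 (log2 change 2.14 ± 0.425, adjusted p = 0.0541). Sema6d had 79.5 and 84.2 at P7 and 10.2 and 13.5 at P21 (-2.45 ± 0.582, adjusted p = 0.107). Efnb2 was read in 49.3% and 32.8% of cells at P7 and in 66.1% and 56.1% at P21, and Sema6d in 45.3% and 39.1% and then in 14.5% and 8.77%. A single cell gave 62.1% of the Sema6d reads of the male at P7. The ages did not overlap for either gene, and neither passed. edgeR called 1.13% of genes and 0 of 54 members, with 6 up and 2 down at an unadjusted p under 0.05 (14.8% of members, 10.5% of all genes). DESeq2 called 9 members among 1169 genes. Between P1 and P7 it called 0% of genes and 0 members, with 4 up and 1 down at an unadjusted p under 0.05 (9.26% against 5.25%) and 2 members among the 394 genes of DESeq2. There Efna5 went from 0.231 and 0.0377 to 3.85 and 44.1 (adjusted p = 0.919) and Sema3a from 2.96 and 18.5 to 0 and 0.320 (adjusted p = 0.919). A single cell gave 51.3% and 68.3% of the Efna5 reads at P7 and 98.7% and 100% of the Sema3a reads at P1.

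Mural cells were few, with 15 to 33 vascular smooth muscle cells and 14 to 75 pericytes a mouse, so that single cells carried much of a sum. In vascular smooth muscle Efna5 had 15.9 and 114.5 CPM at P7, from 4 and 2 cells, and no read in the 33 and 19 cells at P21 (adjusted p = 0.0546). Set against 3 reads over the P21 group, the fold was 932. It allows for counting error of reads only and not for the few cells, so it is no lower bound. Epha3 had 73.4 and 27.8 at P7, with 66.1% and 93.7% of the reads from 1 cell, and 0.274 and 0 at P21 (adjusted p = 0.593). edgeR called 0.0886% of genes and 0 of 47 members, with 1 up and 3 down at an unadjusted p under 0.05 (8.51% of members, 7.21% of all genes). DESeq2 called 6 members among 834 genes. Between P1 and P7 it called 0%, with 1 up and 0 down at an unadjusted p under 0.05 (2.13% against 3.73%) and 3 members among the 444 genes of DESeq2. Sema3b had 23.8 and 25.9 at P1, with 83.0% and 100% of the reads from 1 cell, and 0.529 and 0 at P7 (adjusted p = 0.991). Slit2 had 0.449 and 0.0947 at P1 and 57.6 and 0.148 at P7 (adjusted p = 0.991), and 75.8% of the reads in the female at P7 were of 1 cell.

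In pericytes the basement membrane netrin Ntn4 alternated. It had 0.713 and 0 CPM at E18.5 but 72.2 and 73.5 at P1, then 0 and 0.267 at P7 but 36.1 and 48.8 at P21, with adjusted p of 0.766, 1.0 and 0.898 for the 3 steps. A single cell gave 56.9% and 91.6% of the reads at P1, while 30 of 70 and 23 of 75 cells held a read at P21. Slit3 had 22.1 and 55.1 at P1, with 100% and 96.7% of the reads from 1 cell, and 0 and 0.0381 at P7 (adjusted p = 1.0). With 1 read behind the P7 value, its ratio was 1860 with a 95% interval from 334 to 73700, which covers counting error only. Efna2 had no read at E18.5 and 3.38 and 17.4 at P1, from 1 cell in each mouse (adjusted p = 0.845). Sema5b had 12.5 and 29.2 at P7, with 98.0% and 49.0% of the reads from 1 cell, and 0.450 and 0.0491 at P21 (adjusted p = 0.955). edgeR called 0.042%, 0% and 0.0504% of genes in the 3 steps and 0 of 46 members in each. At an unadjusted p under 0.05 there were 2 up and 0 down, 1 up and 2 down, and 4 up and 1 down. These were 4.35%, 6.52% and 10.9% of members, where 5.40%, 3.99% and 4.66% of all genes were under that p. DESeq2 called 4, 6 and 4 members among 670, 484 and 446 genes.

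In myofibroblasts, which had enough cells at P1 and P7 only, edgeR called 0% of genes and 0 of 53 members, with 4 up and 5 down at an unadjusted p under 0.05 (17.0% of members, 8.01% of all genes). DESeq2 called 6 members among 686 genes. Robo4, known as a receptor of endothelium, had 25.2 and 27.7 CPM at P1 and 0.0120 and 0 at P7 (adjusted p = 0.374). A single cell gave 81.6% and 83.8% of the P1 reads. The endothelial marker list, 7 genes, summed to 0.12 to 0.981 over the myofibroblasts of the 6 mice, and Cdh5 was at 0 in all of them. Efna5 had 8.84 and 34.7 at P1 and 0.994 and 1.20 at P7 (adjusted p = 0.491), with 1 cell behind all the reads of the male at P1.

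**Figure D4:**
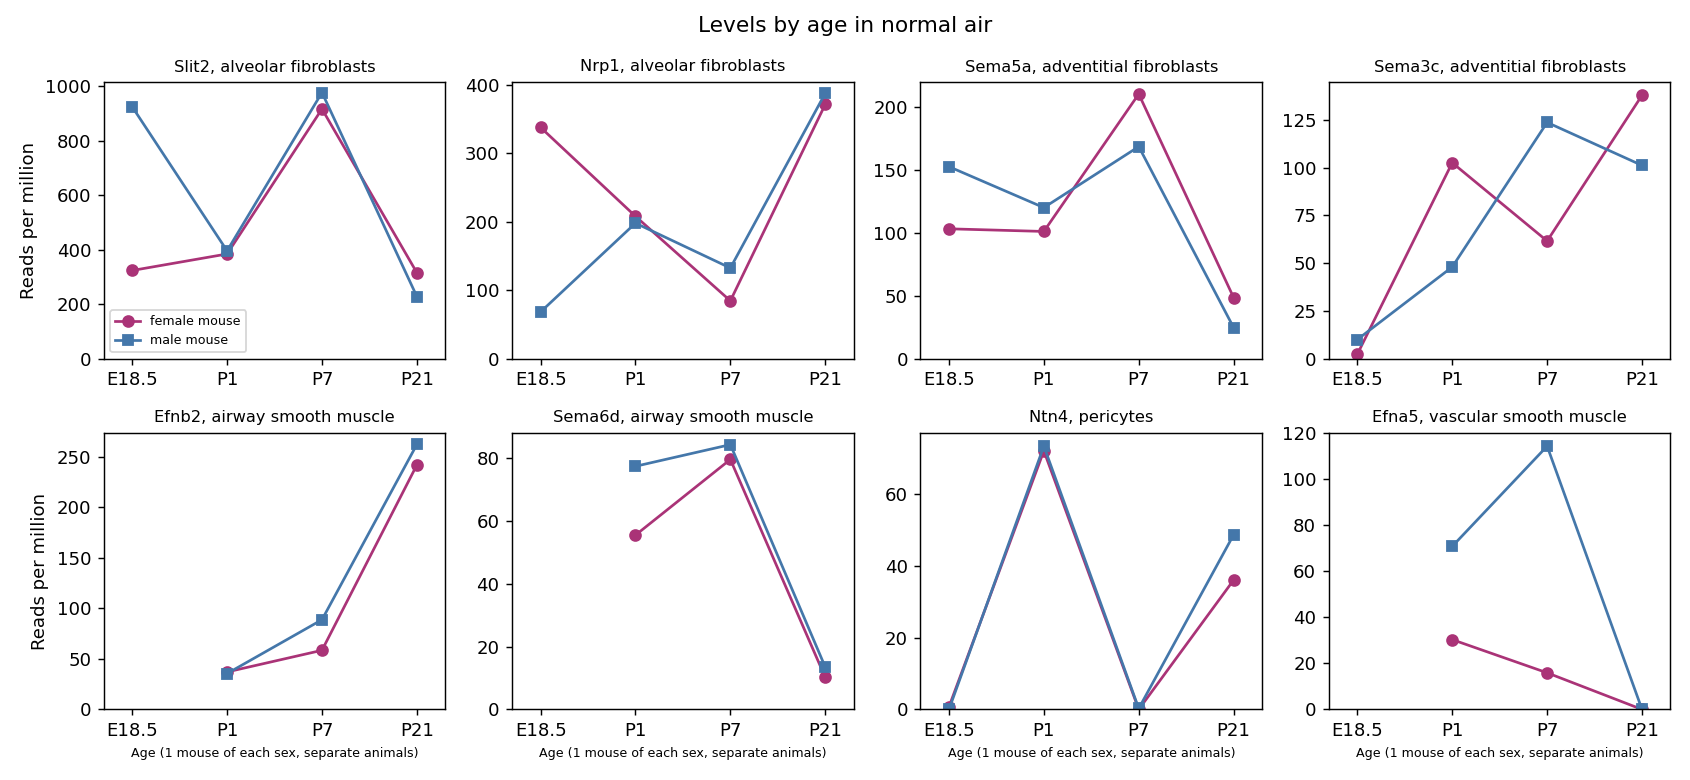
CPM by age in normal air for 8 pairs of gene and cell class, with a line for the female and a line for the male mice, which are separate animals at each age. Efnb2 in airway smooth muscle stands at 242 and 262 at P21 against 58.5 and 88.7 at P7, and Ntn4 in pericytes is high at P1 as well as P21 and near 0 at the other ages.

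Hyperoxia was compared with normal air at P7 in 5 classes, since pericytes were too few. No member passed in any of them, and edgeR called 0% of all genes in each. At an unadjusted p under 0.05 there were 2 members up and 0 down in alveolar fibroblasts, 2 and 4 in adventitial fibroblasts, 4 and 1 in myofibroblasts, 1 and 0 in airway smooth muscle and 0 and 1 in vascular smooth muscle. In the same order these were 3.45%, 10.3%, 9.43%, 1.85% and 2.13% of members, where 2.68%, 8.01%, 6.33%, 3.10% and 2.57% of all genes were under that p. DESeq2 called 3, 2, 3, 1 and 2 members among 241, 389, 376, 129 and 215 genes. The members' median log2 change lay between -0.0201 and 0.136 in the 5 classes, and that of all genes between -0.0563 and 0.12.

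In adventitial fibroblasts Robo2 and Plxna2 had lower values in hyperoxia. Robo2 had 99.2 and 158 CPM in normal air and 30.7 and 23.8 in hyperoxia, a log2 change of -2.44 ± 0.441 (unadjusted p = 0.000231, adjusted p = 0.255). A Robo2 read was found in 42.0% and 51.8% of cells in normal air and in 38.2% and 44.8% in hyperoxia, and 1 cell gave 53.0% of the reads in the male in normal air. Plxna2 had 45.9 and 56.2 and then 4.51 and 7.23 (-3.33 ± 0.867, adjusted p = 0.568), and 1 cell gave 68.2% and 87.9% of its reads in normal air. The mesothelial marker list, 4 genes, summed to 218 and 0.0652 CPM in the early adventitial fibroblasts in normal air and to 576 and 654 in hyperoxia, and the median of genes per thinned cell was 2467 and 2491 in normal air and 4030 and 4805.5 in hyperoxia. The part of either in these values was not tested.

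In myofibroblasts Efna5 and the secreted repellent Sema3a had higher values in hyperoxia. Efna5 had 0.994 and 1.20 CPM in normal air and 40.6 and 52.4 in hyperoxia (log2 change 5.35 ± 0.966, adjusted p = 0.308). Sema3a had 2.07 and 2.36 and then 26.5 and 34.0 (3.71 ± 1.01, adjusted p = 0.603). More cells held a read of each: 4.52% and 3.80% against 32.8% and 35.6% for Efna5, and 5.16% and 9.24% against 32.8% and 53.3% for Sema3a. After thinning to equal reads the shares were 1.32% and 2.81% against 29.3% and 26.7% for Efna5, and 3.29% and 5.06% against 24.1% and 40.0% for Sema3a. The thinned myofibroblasts held a median of 2244 and 2136.5 genes in normal air and 4475 and 5332 in hyperoxia, and the part of this in the shares was not tested.

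In alveolar fibroblasts Efnb2 had 0.212 and 0.843 CPM in normal air and 12.0 and 17.5 in hyperoxia (4.78 ± 1.88, adjusted p = 1.0). In normal air 1 cell gave 72.9% and 58.1% of those Efnb2 reads. Efna5 there had 87.0 and 32.8 and then 145.5 and 216 (1.64 ± 0.971, adjusted p = 1.0). Adventitial fibroblasts held 7597 and 4692 Efna5 reads in 50 and 56 cells in normal air. In hyperoxia they held 19665 and 53165 in 110 and 116 cells. After thinning, 56% and 50% of adventitial cells held an Efna5 read in normal air and 66.4% and 76.7% in hyperoxia. The median of genes per thinned cell was 2289 and 2026 in normal air and 3539 and 4233 in hyperoxia in the early alveolar label, and 3159 and 2976 against 3655 and 4430 in early airway smooth muscle. Its part in these values was not tested. In airway smooth muscle Sema3c had 428 and 532.5 and then 368 and 202, and Nrp2 12.1 and 1.42 and then 27.9 and 27.7, each with an adjusted p of 1.0. For Nrp2, 6 to 8 cells a mouse held a read. In vascular smooth muscle Nrp1 had 478 and 292 and then 137 and 267 (adjusted p = 1.0). Slit2 had 57.6 and 0.148 and then 0 and 0.0561, with 1 read in hyperoxia and a ratio of 812 (95% interval 146 to 32100, counting error only).

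Whether hyperoxia acted differently on early adventitial and early alveolar fibroblasts was tested on both labels of the same mice, as an interaction blocked by mouse. 0 of 60 members passed and 0% of all genes were called by edgeR, with 2 members up and 7 down at an unadjusted p under 0.05 (15.0% of members, 6.76% of all genes). DESeq2 called 6 members among 571 genes. For Robo2 the difference, adventitial change minus alveolar change, was -2.11 ± 0.251 on the log2 scale (adjusted p = 0.572). In alveolar fibroblasts Robo2 stood at 162 and 230 in normal air and 189 and 155 in hyperoxia. For Epha4 the difference was -5.40 ± 0.780 (adjusted p = 0.588), with alveolar levels of 0.0705 and 0.0432 in normal air and 2.02 and 1.57 in hyperoxia. These alveolar values are near 0, and a negative difference need not be a fall in adventitial cells. On the scale of log2(CPM + 1), adventitial cells stood above alveolar cells by 5.27 and 6.07 in normal air. In hyperoxia they stood above them by 3.83 and 3.87.

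**Figure D5:**
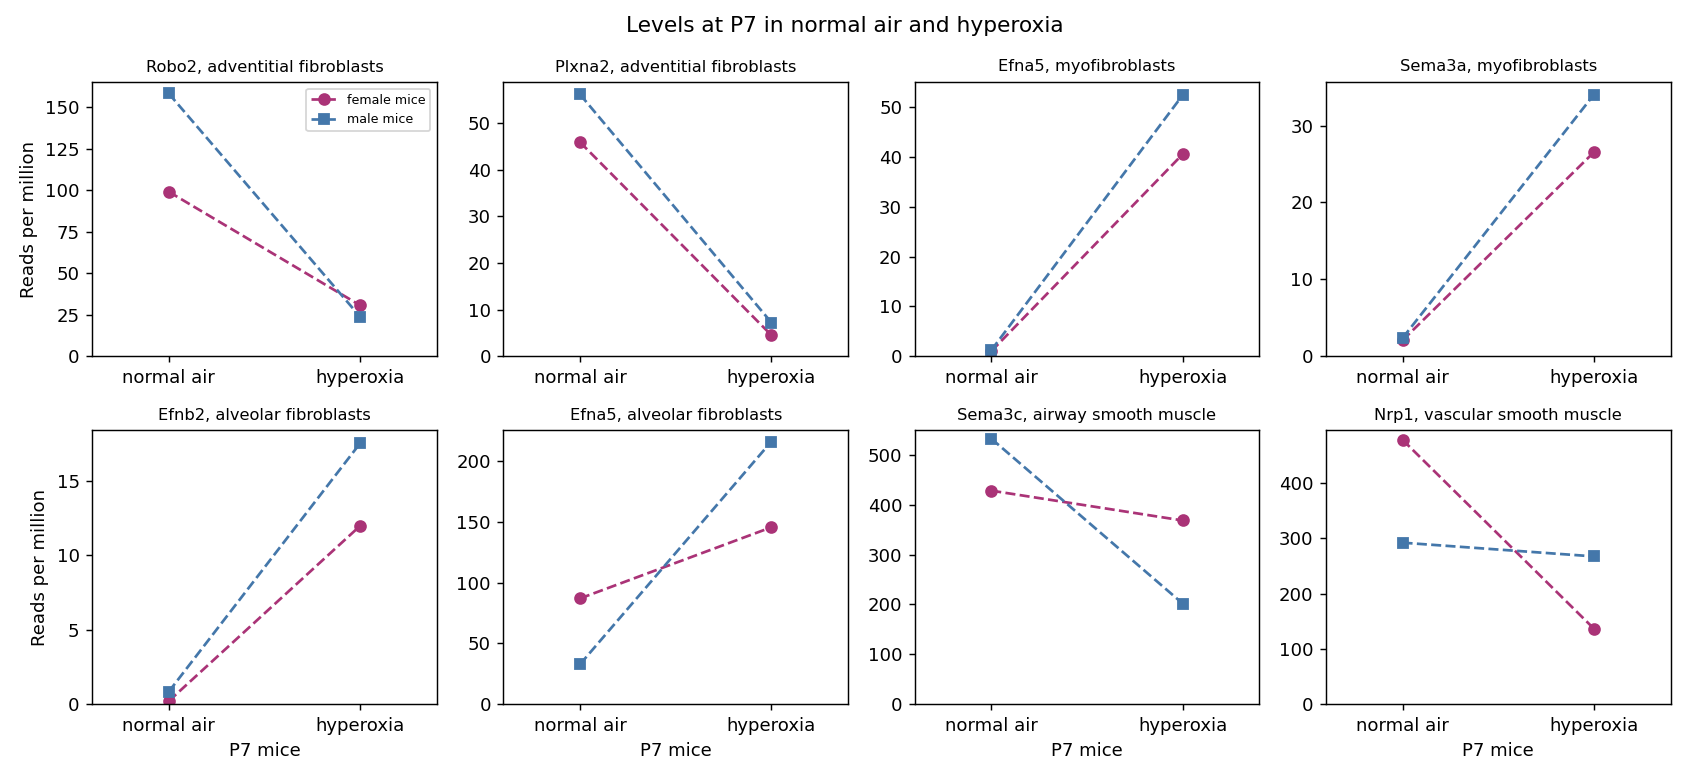
CPM at P7 in normal air and in hyperoxia for 8 pairs of gene and cell class, with dashed lines joining the mice of a sex. Robo2 and Plxna2 in adventitial fibroblasts are lower and Efna5 and Sema3a in myofibroblasts higher in both hyperoxia mice, and Nrp1 in vascular smooth muscle is lower mainly in the female.

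Of 46 further guidance genes outside the symbol rule, such as the netrin receptors Dcc and Neo1 and the effectors of plexins and Eph receptors, 43 were in the table. Only Arhgef11, an effector of B-type plexins, passed in any comparison by edgeR. In alveolar fibroblasts it had 0 and 0.147 CPM at E18.5 and 16.0 and 13.4 at P1 (adjusted p = 0.0428). With 2 reads at E18.5, its ratio was 120 with a 95% interval from 33.2 to 989 for counting error alone. This is the comparison in which the E18.5 cells held few genes.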

How the data were processed

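The deposited values were whole-number read counts per gene and cell, which the authors had not normalized, from Tn5 libraries made in plates, per the labels' protocols. No molecular identifiers are named, so reads and not molecules were counted. The submitters' processing notes name STAR 2.5.2b, HTSeq 0.10 and the build GRCh38, a human build, although the organism is mouse. Strand and the rule for reads shared by genes are not given in the sources used here.

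Cells took their mouse and subtype from the labels. All 5480 were kept, 69 of a CD31 and 2 of a CD45 sort included. Counts were summed per mouse and class (at least 10 cells) and fitted with edgeR 4.0.16 in R 4.3.3 (TMM, filterByExpr, quasi-likelihood test, Benjamini-Hochberg), which was tested on simulated data. DESeq2 1.42.0, other size factors, no filter, no term for sex, thinning, the mesenchymal sort alone and leaving out each mouse were alternatives. Folds against a group at 0 used 3 reads. The number of mice and of cells behind a sum limits precision, and intervals cover counting error only. Exon lengths matched for 65 of 65 members. Members, lists and tests were chosen with earlier results of these data known. The genes named are those past the threshold, the 2 with the smallest p in a comparison at 10 CPM or more, those that mark a subtype and those of the 2-fold rule.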

Additional observations from a re-analysis of the deposited data

Results flagged for a closer look

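For 8 pairs of cell classes, a named member moved one way in both sexes of 1 class and the other way in both sexes of the other. Each change had to be at least 1 in size, with 10 CPM or more in a mouse of each class. The same rule was not run over all genes, so this count has no background share. Each value is the difference between the mean changes of log2(CPM + 1), and none of these differences was tested.

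Between P1 and P7, Epha7 changed by 1.02 and 2.37 in the female and male of alveolar fibroblasts and by -1.04 and -2.25 in airway smooth muscle, a difference of 3.34. Efna5 differed by 6.87 between airway smooth muscle (1.98 and 5.44) and myofibroblasts (-2.3 and -4.02). Sema3b differed by 6.42 between adventitial fibroblasts (1.93 and 2.15) and vascular smooth muscle (-4.02 and -4.75). Single cells carried much of these sums. For Efna5, 1 cell gave 51.3% and 68.3% of the reads in airway smooth muscle at P7. In myofibroblasts at P1 it was 87.9% and 100%. For Sema3b in vascular smooth muscle at P1 it was 83% and 100%.

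Between P7 and P21, Efnb2 differed by 3.95 between airway smooth muscle (2.03 and 1.55) and adventitial fibroblasts (-1.68 and -2.63). Sema6d, which had values of -2.85 and -2.56 in airway smooth muscle, differed from it by 4.82 in alveolar fibroblasts (1.15 and 3.09) and by 6.58 in vascular smooth muscle (4.92 and 2.85).

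In hyperoxia at P7, Efnb2 differed by 5.45 between alveolar fibroblasts (3.42 and 3.33) and vascular smooth muscle (-2.59 and -1.55). Sema3a differed by 4.67 between myofibroblasts (3.17 and 3.38) and adventitial fibroblasts (-1.66 and -1.12).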

How the results depend on the processing

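The only member past the threshold, Ephb2 in alveolar fibroblasts from E18.5 to P1, was not stable. The count of 1 became 0 with RLE size factors or without the filter, 6 with no replicate block (no term for the sex that pairs the mice), 14 with DESeq2 and 13 with thinned cells. It ranged from 0 to 18 over the mice left out, with 18 without the female and 5 without the male at E18.5, and the cause was not tested. The count over all genes moved too, from 966 to 3609 with DESeq2, 5078 with thinned cells, 4846 without that female and 2284 without that male, and the median log2 change of all genes from 1.35 to 1.14 with RLE factors. DESeq2 called more members than edgeR in each comparison: 1, 7 and 3 in alveolar fibroblasts (P1 to P7, P7 to P21, hyperoxia), 2, 1, 6 and 2 in adventitial fibroblasts, 6 and 3 in myofibroblasts, 2, 9 and 1 in airway smooth muscle, 3, 6 and 2 in vascular smooth muscle, 4, 6 and 4 in pericytes and 6 for the interaction. Thinned cells gave 4 in alveolar fibroblasts from P7 to P21, and 1 in adventitial fibroblasts from E18.5 to P1 and from P7 to P21, in airway smooth muscle and in vascular smooth muscle from P7 to P21. From P7 to P21, RLE factors gave 1 in airway smooth muscle, as did no filter and no replicate block, and no filter gave 1 in vascular smooth muscle.

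With mice left out, counts ranged from 0 to 1 in alveolar fibroblasts, airway smooth muscle and vascular smooth muscle from P7 to P21, from 0 to 2 in adventitial fibroblasts from E18.5 to P1, from 0 to 6 in myofibroblasts from P1 to P7 and from 0 to 4 there in hyperoxia (above 0 without a P1 mouse), and from 0 to 4 for the interaction (4 without the normal-air female at P7). The subtype pairs ranged from 1 to 3 for early airway smooth muscle with myofibroblasts and from 5 to 9 for vascular smooth muscle with pericytes, the latter being 3 at a 3-fold difference. Of 590 values of named members under an alternative, 512 kept direction and side of the threshold, 65 passed it, 12 lost it and 1 reversed: Slit2 in vascular smooth muscle from P1 to P7 ranged from -2.89, without the normal-air female at P7, to 9.945. The number of cells limits the mural and E18.5 alveolar values.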
